A study of Saccharomyces cerevisiae with 10 samples.

Results

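The levels of 10 genes of cytoplasmic mRNA decay were described in 5 *Saccharomyces cerevisiae* strains. The genes were *XRN1* (YGL173C), *DCP2* (YNL118C), *DCP1* (YOL149W), *EDC3* (YEL015W), *PAT1* (YCR077C), *LSM1* (YJL124C), *DHH1* (YDL160C), *CCR4* (YAL021C), *POP2* (YNR052C) and *CDC39* (YCR093W), the decay machinery that has been linked to mRNA imprinting by Rpb4/7. Members were taken by their systematic names, and all 10 had a row of their own among 5383 open reading frame (ORF) rows and 10431 rows in all. Each strain was sequenced as 2 libraries from independent cultures, grown in rich YPD medium at 30 °C to an OD600 of about 0.8, by QuantSeq, which counts tags near the 3′ ends of polyadenylated RNAs.

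The *rpb1-84 rrp6∆*, *rrp6∆*, *rpb1-84* and WT strains were MATα *his3-∆200 leu2-3,112 trp1-∆63 ura3-52*, and all of them, WT included, lacked the chromosomal *RPB1* gene (*rpb1-∆187::HIS3*) and lived on a multicopy 2µ *LEU2* plasmid. The plasmid carried the *rpb1-84* allele in *rpb1-84 rrp6∆* and *rpb1-84* cells, and *RPB1* in *rrp6∆* and WT cells. *RRP6* was replaced by KanMX4 in both *rrp6∆* strains. The *rpb1-84* single mutant also carried a TAP tag at *RPB4* (*RPB4::TAP::TRP1*), which the other strains did not. The *rpb4∆* strain was of another background (MATa *his3-∆1 leu2-∆0 met15-∆0 ura3-∆0 rpb4∆::kanMX4*). The study compared *rpb1-84* and *rpb4∆* with WT libraries of earlier experiments, which were not analysed here. So the *rpb1-84* allele, the tag and the experiment cannot be told apart where *rpb1-84* is set beside the WT of the *rrp6* experiment, and *rpb4∆* is given as levels only.

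Most yeast mRNAs are degraded after their poly(A) tail has been shortened, mainly by the Ccr4-Not complex. The cap is then removed by Dcp1/Dcp2, which Edc3, Pat1, the Lsm1-7 ring and Dhh1 promote, and Xrn1 digests the body of the mRNA from its 5′ end. Rpb4 and Rpb7 form the stalk of RNA polymerase II; they can leave the nucleus with the mRNA and take part in its decay. The *rpb1-84* mutation lies in the foot of the polymerase and loosens the stalk from the enzyme, and Rrp6 is an exonuclease subunit of the nuclear exosome.

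The 6 members whose levels set the *rpb1-84* strain most apart are shown by the sequence upstream of their start codons. *POP2*, *PAT1* and *DHH1* were low in that strain and *DCP2*, *CCR4* and *CDC39* were high. Each stretch holds the 200 bases from -300 to -101 before the start codon, 5′ to 3′ on the strand of the gene, from the RefSeq R64 genome. The capitals mark TATAAA or TATATA, searched on both strands, where matches of the motifs may overlap.
POP2: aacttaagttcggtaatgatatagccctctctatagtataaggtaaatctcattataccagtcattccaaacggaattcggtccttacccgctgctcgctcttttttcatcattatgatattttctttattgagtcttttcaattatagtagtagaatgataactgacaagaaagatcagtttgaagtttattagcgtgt
PAT1: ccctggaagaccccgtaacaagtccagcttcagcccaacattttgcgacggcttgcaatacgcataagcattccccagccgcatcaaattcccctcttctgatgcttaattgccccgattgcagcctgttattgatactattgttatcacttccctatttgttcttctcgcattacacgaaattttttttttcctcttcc
DHH1: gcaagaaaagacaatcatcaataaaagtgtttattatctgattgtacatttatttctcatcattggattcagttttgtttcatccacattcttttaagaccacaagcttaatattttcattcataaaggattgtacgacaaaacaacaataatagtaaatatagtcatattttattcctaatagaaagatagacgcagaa
DCP2: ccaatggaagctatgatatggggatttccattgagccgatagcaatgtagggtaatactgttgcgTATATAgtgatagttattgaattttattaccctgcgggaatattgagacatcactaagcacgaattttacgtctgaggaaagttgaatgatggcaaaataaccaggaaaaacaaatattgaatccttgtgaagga
CCR4: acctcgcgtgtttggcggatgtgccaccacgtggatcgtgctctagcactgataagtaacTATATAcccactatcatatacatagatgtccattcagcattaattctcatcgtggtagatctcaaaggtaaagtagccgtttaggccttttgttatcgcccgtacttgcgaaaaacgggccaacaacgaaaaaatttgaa
CDC39: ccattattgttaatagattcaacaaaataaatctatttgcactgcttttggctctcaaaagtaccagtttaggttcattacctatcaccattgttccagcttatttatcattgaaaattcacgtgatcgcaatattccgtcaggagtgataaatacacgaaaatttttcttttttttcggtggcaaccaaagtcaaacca
The windows lie at chrXIV:720748-720947 (*POP2*, minus strand), chrIII:252729-252928 (*PAT1*, minus), chrIV:172031-172230 (*DHH1*, minus), chrXIV:405665-405864 (*DCP2*, minus), chrI:113460-113659 (*CCR4*, minus) and chrIII:279817-280016 (*CDC39*, plus). Of the 10 members, 4 held a match, namely *XRN1*, *DCP1*, *DCP2* and *CCR4*. Of the 5036 such windows of ORF rows named for a single annotated gene, 48.6% held either motif. No match was found for *POP2*, *PAT1*, *DHH1*, *LSM1*, *EDC3* or *CDC39*, which says only that these letters are not in these windows.

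Libraries held from 1415496 to 7268211 counts. ORF rows took 73.7% to 75.1% of the counts in *rrp6∆* and 81.2% to 81.3% in *rpb1-84 rrp6∆*, against 95.4% to 95.5% in WT. The *rpb1-84* libraries stood apart: the correlation of mean log2 levels over 4505 ORF rows was 0.809 to 0.852 between *rpb1-84* and the other strains, and 0.865 to 0.972 among those. Replicates correlated at 0.986 to 0.994. The *RRP6* row held 290 and 176 counts in *rpb1-84 rrp6∆*, 572 and 548 in *rrp6∆* and 231 and 171 in WT, so tags lay on that row in every library labelled *rrp6∆*. With depth taken into account, by the fit described below, the row was lower than WT in *rpb1-84 rrp6∆* (-0.36 ± 0.13 on the log2 scale, edgeR adjusted p = 0.015). In *rrp6∆* it was higher than WT (0.72 ± 0.12, edgeR adjusted p = 2.2e-06). The counts do not show where in *RRP6* these tags lie, and the row does not check the deletion; *rrp6∆* names libraries by their labels throughout. The *RPB4* row held 7 and 4 counts in *rpb4∆* and 33 and 59 in *rpb1-84*, the strain tagged at that gene, against 606 and 508 in WT.

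Levels are counts per 1000000 ORF counts after TMM normalization (normalized CPM). The factors were taken from ORF rows, because the ncRNA rows rose together without Rrp6. With factors from all rows the median ORF moved by -0.49 on the log2 scale in *rrp6∆* over WT and by -0.33 in *rpb1-84 rrp6∆* over WT. Changes are therefore relative to the median ORF. Fewer cells, less RNA per cell and a shift of all mRNAs cannot be told apart in such data. A change was called at an adjusted p under 0.1 (edgeR quasi-likelihood test, Benjamini-Hochberg over all rows tested), the false discovery rate the study used, and the study's further demand of a change beyond 2-fold is counted beside it. A test of one gene alone in 2 libraries against 2 could not go below 0.333 (exact permutation test, two-sided), so the calls rest on the spread shared over all rows.

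**Figure D1:**
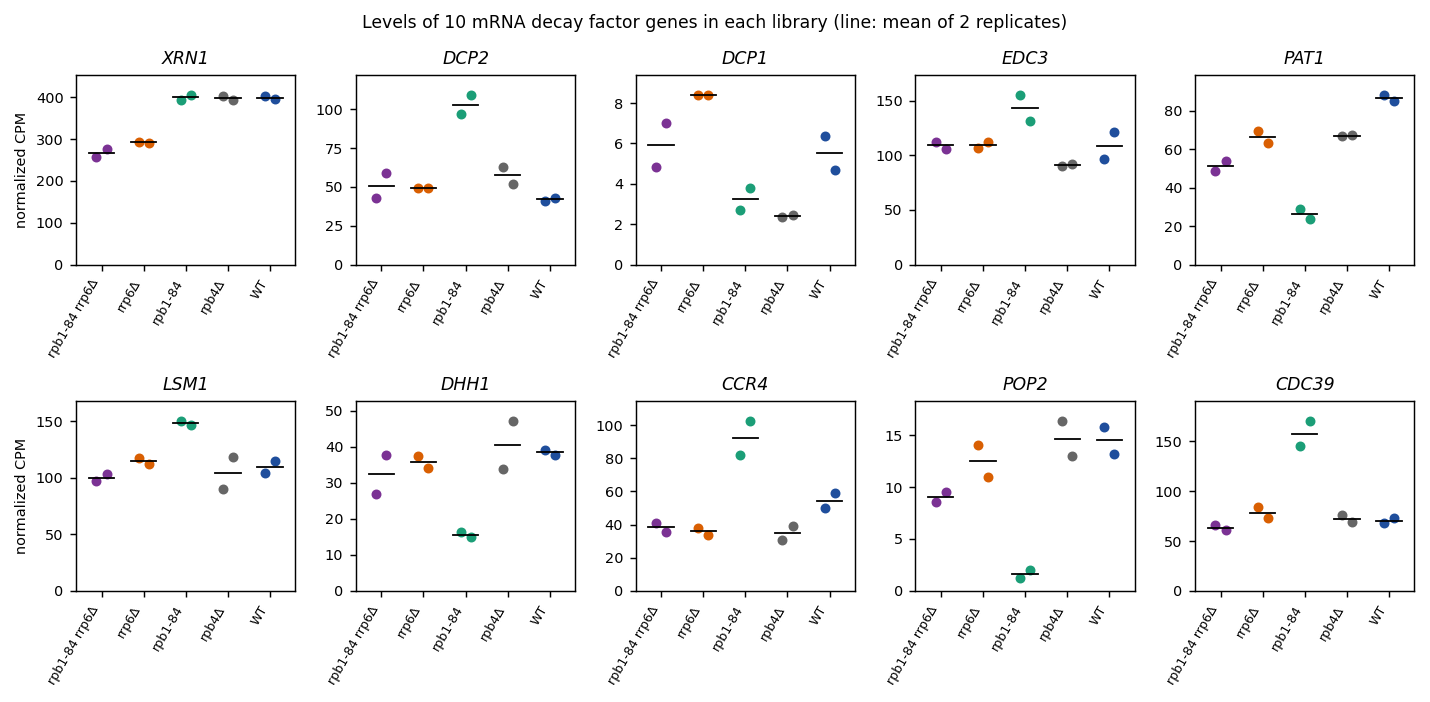
Normalized CPM (y axis, starting at 0) of each member in the 2 libraries of each strain (points), with the mean as a line, for *rpb1-84 rrp6∆*, *rrp6∆*, *rpb1-84*, *rpb4∆* and WT from left to right. The *rpb1-84* libraries are the lowest for *PAT1*, *DHH1* and *POP2* and the highest for *DCP2*, *EDC3*, *LSM1*, *CCR4* and *CDC39*, while *XRN1* is lowest in *rpb1-84 rrp6∆*.

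*XRN1*, the cytoplasmic 5′ to 3′ exonuclease, was lower in both strains without Rrp6. Its level was 257 and 277 normalized CPM in *rpb1-84 rrp6∆*, 293.5 and 291 in *rrp6∆*, 393 and 406 in *rpb1-84*, 403 and 394 in *rpb4∆*, and 402.5 and 396 in WT. The 3 strains with a functional *RRP6* overlapped within 393 to 406, and *rrp6∆* and *rpb1-84 rrp6∆* lay apart from them and from each other. In the fit, *XRN1* fell by 0.60 ± 0.09 (SE) on the log2 scale in *rpb1-84 rrp6∆* over WT (edgeR adjusted p = 3.9e-07) and by 0.45 ± 0.09 in *rrp6∆* over WT (edgeR adjusted p = 2.6e-05). The difference between *rpb1-84 rrp6∆* and *rrp6∆*, -0.15 ± 0.09, was not called (edgeR adjusted p = 0.16). *XRN1* did not differ detectably between *rpb1-84* and WT, at 0.00 ± 0.09 (edgeR adjusted p = 0.99).

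*DCP2* encodes the catalytic subunit of the decapping enzyme and *DCP1* its partner. *DCP2* had 42.9 and 58.7 normalized CPM in *rpb1-84 rrp6∆*, 49.2 and 49.0 in *rrp6∆*, 96.8 and 109 in *rpb1-84*, 63.0 and 51.9 in *rpb4∆*, and 40.7 and 43.2 in WT. Both *rpb1-84* libraries were above all the others, and *rpb1-84* was higher than WT by 1.31 ± 0.14 on the log2 scale (edgeR adjusted p = 1.3e-10). In the double mutant *DCP2* was 0.48 times its level in *rpb1-84* (-1.07 ± 0.12 on the log2 scale, edgeR adjusted p = 9.8e-10) and its difference from WT, 0.25 ± 0.15, was not called. *DCP1* was one of the least counted members, with 3 to 40 counts in a library. It had 4.81 and 7.02 normalized CPM in *rpb1-84 rrp6∆*, 8.41 and 8.38 in *rrp6∆*, 2.70 and 3.79 in *rpb1-84*, 2.33 and 2.43 in *rpb4∆*, and 6.39 and 4.67 in WT. It was called only as higher in *rpb1-84 rrp6∆* than in *rpb1-84* (0.74 ± 0.34 on the log2 scale, edgeR adjusted p = 0.051), and that call was lost without *rpb1-84* replicate 1, at 0.58, without *rpb1-84 rrp6∆* replicate 2, at 0.47, and under each other scaling. *EDC3*, an activator that binds Dcp2, varied least across strains after *XRN1* and *LSM1*. Its level was 112 and 106 normalized CPM in *rpb1-84 rrp6∆*, 106 and 112 in *rrp6∆*, 155 and 132 in *rpb1-84*, 90.5 and 91.6 in *rpb4∆*, and 96.2 and 121 in WT. *EDC3* was higher in *rpb1-84* than in WT by 0.39 ± 0.11 on the log2 scale (edgeR adjusted p = 0.0032), a call that was lost without WT replicate 1, at 0.25.

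Among the activators of decapping, *PAT1* and *DHH1* were low in *rpb1-84* and *LSM1* was high. *PAT1*, whose product bridges the Lsm1-7 ring and the decapping enzyme, had 48.6 and 53.6 normalized CPM in *rpb1-84 rrp6∆*, 69.2 and 63.2 in *rrp6∆*, 29.1 and 23.9 in *rpb1-84*, 66.6 and 67.3 in *rpb4∆*, and 88.2 and 85.2 in WT. WT was the highest strain, and only *rpb4∆* and *rrp6∆* overlapped. *PAT1* fell by 1.74 ± 0.14 on the log2 scale in *rpb1-84* over WT (edgeR adjusted p = 6.5e-14), by 0.79 ± 0.12 in *rpb1-84 rrp6∆* over WT (edgeR adjusted p = 9.4e-07) and by 0.39 ± 0.11 in *rrp6∆* over WT (edgeR adjusted p = 0.0031). It was the only member called in each of the 5 comparisons between strains. *DHH1*, a DEAD-box helicase that represses translation and promotes decapping, had 26.9 and 37.6 normalized CPM in *rpb1-84 rrp6∆*, 37.4 and 34.0 in *rrp6∆*, 16.2 and 15.0 in *rpb1-84*, 33.9 and 47.0 in *rpb4∆*, and 39.0 and 37.7 in WT. Both *rpb1-84* libraries lay below the other 8, which spanned 26.9 to 47.0. *DHH1* fell by 1.31 ± 0.18 on the log2 scale in *rpb1-84* over WT (edgeR adjusted p = 8.1e-08), and its difference of -0.29 ± 0.16 between *rpb1-84 rrp6∆* and WT was not called. *LSM1*, the subunit that makes the Lsm ring cytoplasmic, had 96.9 and 103 normalized CPM in *rpb1-84 rrp6∆*, 117 and 112 in *rrp6∆*, 150 and 146.5 in *rpb1-84*, 90.5 and 118 in *rpb4∆*, and 104 and 115 in WT. Its *rpb1-84* level exceeded that of WT by 0.44 ± 0.10 on the log2 scale (edgeR adjusted p = 0.00049), and every other strain overlapped its neighbour in the order of means.

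The 3 members of the Ccr4-Not deadenylase moved in opposite directions in *rpb1-84*. *CCR4*, the main cytoplasmic deadenylase, had 41.1 and 35.4 normalized CPM in *rpb1-84 rrp6∆*, 37.6 and 34.0 in *rrp6∆*, 81.8 and 102 in *rpb1-84*, 30.9 and 38.9 in *rpb4∆*, and 49.8 and 58.7 in WT. *CCR4* was higher in *rpb1-84* than in WT by 0.79 ± 0.13 on the log2 scale (edgeR adjusted p = 3.1e-06), and it fell by 0.51 ± 0.14 in *rpb1-84 rrp6∆* over WT (edgeR adjusted p = 0.0025). In *rrp6∆* it was 0.66 times its WT level (-0.59 ± 0.14 on the log2 scale, edgeR adjusted p = 0.00041). *CDC39*, which encodes the scaffold Not1 of the complex, had 66.1 and 60.9 normalized CPM in *rpb1-84 rrp6∆*, 83.7 and 73.5 in *rrp6∆*, 145 and 170 in *rpb1-84*, 75.9 and 68.9 in *rpb4∆*, and 68.0 and 73.1 in WT. Both *rpb1-84* libraries were above the other 8, by 1.18 ± 0.12 on the log2 scale over WT (edgeR adjusted p = 3.9e-11). *POP2*, the Caf1 subunit that binds Ccr4, had 8.53 and 9.54 normalized CPM in *rpb1-84 rrp6∆*, 14.1 and 10.96 in *rrp6∆*, 1.20 and 2.04 in *rpb1-84*, 16.4 and 12.98 in *rpb4∆*, and 15.8 and 13.2 in WT. The *rpb1-84* values rest on 4 and 14 counts. *POP2* had the largest change of the 10 members, and it fell by 3.03 ± 0.34 on the log2 scale in *rpb1-84* over WT (edgeR adjusted p = 9.3e-10). Its highest strain mean was 9.05 times its lowest.

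In *rrp6∆* over WT, 3 of the 10 members were called lower, *CCR4*, *PAT1* and *XRN1*, and none was called higher. Of the 5178 ORF rows tested, 27.3% were called lower and 26.4% higher, and 8.9% were called beyond 2-fold, which no member was. The members had a median log2 change of -0.05, against -0.01 over the ORF rows. No member was higher at an unadjusted p under 0.05 in edgeR (0 of 10). DESeq2 also called 0 of 10 higher, but its size factors came from all rows and put the median ORF at -0.48. That count therefore cannot decide whether a member rose relative to the median ORF. The count lower depended on the scaling, since with TMM factors from all rows 8 members were called lower and 0 higher, at a median of -0.53 for the members and -0.49 for the ORF rows.

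In *rpb1-84 rrp6∆* over WT, 4 members were called lower, *CCR4*, *PAT1*, *POP2* and *XRN1*, and none higher. The shares over the ORF rows were 28.4% lower and 28.5% higher, with 9.68% beyond 2-fold. *POP2* fell by 0.71 ± 0.25 on the log2 scale (edgeR adjusted p = 0.014), a call that was lost without WT replicate 1, at -0.57. The median of the members was -0.23, against -0.00 over the ORF rows. At an unadjusted p under 0.05 in edgeR, 0 members were higher. DESeq2 called 0 higher on its own scale, where the median ORF was -0.36, so that count cannot decide the same question. With factors from all rows 8 members were called lower and 0 higher, at a median of -0.55 for the members and -0.33 for the ORF rows. The share of ORF rows called under that scaling was not counted.

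In *rpb1-84 rrp6∆* over *rrp6∆*, the comparison of the alleles of *RPB1* without Rrp6, 4 members were called lower, *CDC39*, *LSM1*, *PAT1* and *POP2*, and none higher, against 23.4% lower and 25% higher of the ORF rows and 4.07% beyond 2-fold. All of them were under 2-fold. *PAT1* fell by 0.40 ± 0.11 on the log2 scale (edgeR adjusted p = 0.0059) and *CDC39* by 0.32 ± 0.11 (edgeR adjusted p = 0.018). *POP2* fell by 0.50 ± 0.23 (edgeR adjusted p = 0.083) and *LSM1* by 0.21 ± 0.10 (edgeR adjusted p = 0.072). Without *rrp6∆* replicate 1 only 1 member was called, and without *rpb1-84 rrp6∆* replicate 1 only 2 were. With factors from all rows, which moved the median ORF by 0.16, 1 member was called lower and 0 higher. DESeq2, which put the median ORF at 0.11, called 0 in either direction. At an unadjusted p under 0.05, 0 members were higher and 4 lower.

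**Figure D2:**
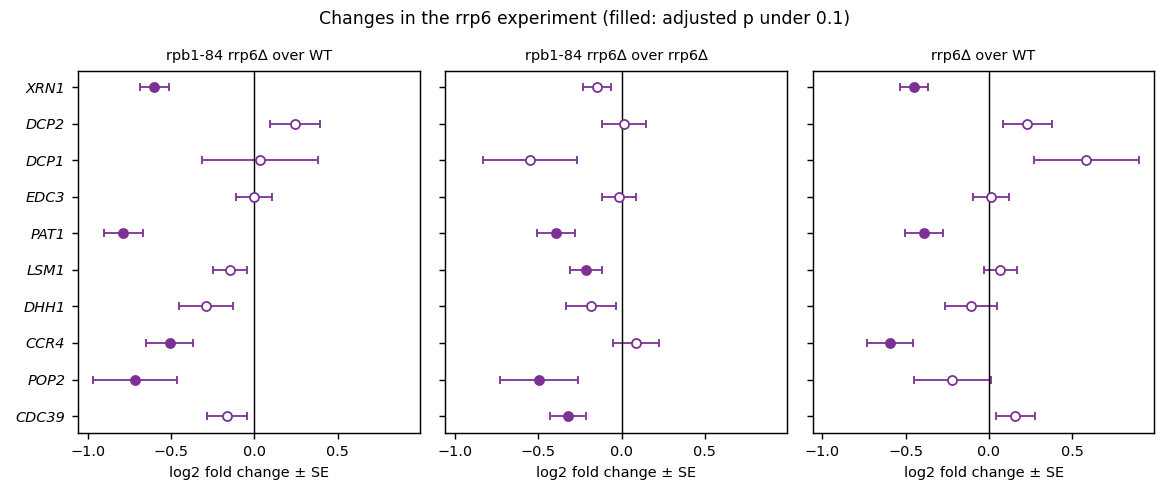
Log2 fold change of each member with its standard error (x axis) in *rpb1-84 rrp6∆* over WT, *rpb1-84 rrp6∆* over *rrp6∆* and *rrp6∆* over WT, from left to right, with filled points for an adjusted p under 0.1. *PAT1* lies left of 0 and filled in all 3 panels, and *EDC3* lies within 0.02 of 0 in each, while under other scalings the unfilled points of *EDC3*, *CDC39*, *DCP2*, *DCP1* and *LSM1* changed sign in one or both comparisons with WT, and those of *EDC3* and *XRN1* in the comparison with *rrp6∆*.

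The *rpb1-84* strain differed most. Over WT, 5 members were called higher, *DCP2*, *CDC39*, *CCR4*, *LSM1* and *EDC3*, and 3 lower, *POP2*, *PAT1* and *DHH1*. *DCP1*, at -0.70 ± 0.38 on the log2 scale, and *XRN1* were not called. Beyond 2-fold were *DCP2* and *CDC39* among the higher and all 3 of the lower. Of 5207 ORF rows tested, 36.1% were called higher and 35.9% lower, and 31.3% were called beyond 2-fold. Within the *rrp6* experiment, *rpb1-84 rrp6∆* over *rrp6∆* had 4.07% of 5178 ORF rows called beyond 2-fold. The study used WT libraries of an earlier experiment for this strain and described a far smaller share of ORFs as changed. The allele, the tag at *RPB4* and the experiment cannot be told apart in *rpb1-84* over WT. The 5 and 3 calls were the same in number under every scaling tried.

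In *rpb1-84 rrp6∆* over *rpb1-84*, all 10 members were called, 4 higher and 6 lower, against 38% higher and 37.8% lower of the ORF rows and 29.2% beyond 2-fold. *POP2* was 4.98 times its *rpb1-84* level (2.32 ± 0.36 on the log2 scale, edgeR adjusted p = 3.2e-07), *DHH1* 2.03 times and *PAT1* 1.94 times. *CDC39* was 0.40 times its *rpb1-84* level and *CCR4* 0.41 times. These 5 genes and *DCP2* thus lay nearer to the levels of *rrp6∆* and WT in the double mutant, which has no tag at *RPB4*, than in *rpb1-84*. The tag, the experiment and the loss of Rrp6 cannot be told apart in this comparison.

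The response to loss of Rrp6 differed between the alleles of *RPB1* for 8 members, by the interaction term, that is the log2 change of *rpb1-84 rrp6∆* over *rpb1-84* less that of *rrp6∆* over WT. It was positive for *POP2* (2.53 ± 0.44, edgeR adjusted p = 8.2e-06), *PAT1* (1.35 ± 0.18, edgeR adjusted p = 1.2e-07) and *DHH1* (1.13 ± 0.24, edgeR adjusted p = 0.00017). It was negative for *CDC39* (-1.50 ± 0.17, edgeR adjusted p = 1.6e-09), *DCP2* (-1.30 ± 0.19, edgeR adjusted p = 7.1e-07), *CCR4* (-0.70 ± 0.20), *LSM1* (-0.65 ± 0.15) and *EDC3* (-0.41 ± 0.16). The call of *EDC3* was lost with DESeq2 and in 4 of the 8 fits that left out a library, at -0.25 to -0.37. The term was not called for *XRN1* (-0.15 ± 0.13) or *DCP1* (0.16 ± 0.48). Over the ORF rows 30.2% had a term called positive and 30.4% one called negative, and 28.1% were called beyond 2-fold, as were 5 of the members. The term contains the same *rpb1-84* libraries as the comparisons above, and the tag and the experiment cannot be told apart from the allele in it.

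**Figure D3:**
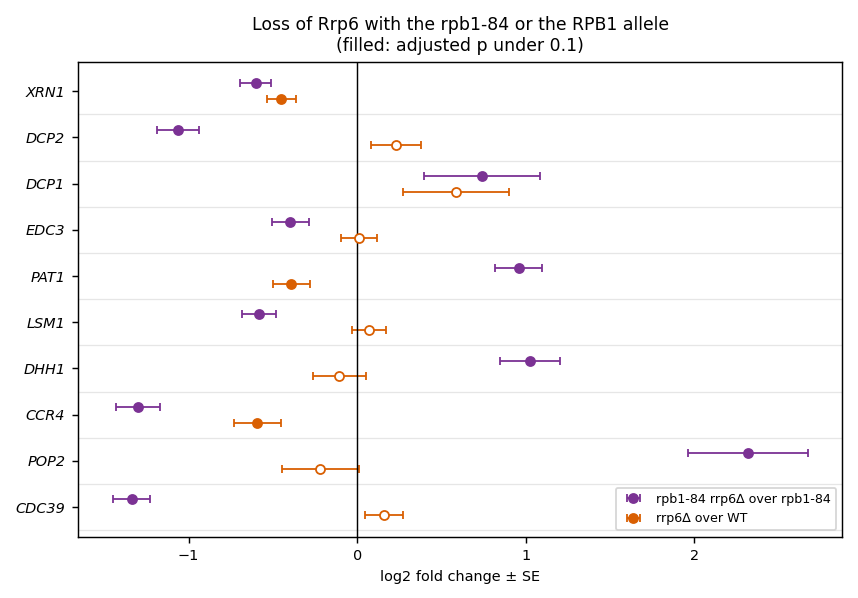
Log2 fold change with its standard error (x axis) on loss of Rrp6 for each member, for *rpb1-84 rrp6∆* over *rpb1-84* (upper point of each pair) and *rrp6∆* over WT (lower point), with filled points for an adjusted p under 0.1. In the upper points the tag at *RPB4* and the experiment cannot be told apart from the loss of Rrp6. The pairs of *XRN1*, *CCR4* and *DCP1* stand on the same side of 0 and those of the other 7 members on opposite sides, where for *DCP2*, *CDC39*, *EDC3* and *LSM1* the lower, unfilled point changed sign under other scalings.

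Ordered by strain mean, *rpb1-84* was the highest strain for *CCR4*, *CDC39*, *DCP2*, *EDC3*, *LSM1* and *XRN1*, and the lowest for *POP2*, *PAT1* and *DHH1*. For *XRN1* it overlapped WT and *rpb4∆*. The *rpb4∆* strain was the lowest for *CCR4*, where it overlapped *rrp6∆*, and for *DCP1* and *EDC3*, where it did not overlap its neighbour in the order, on 4 and 3 counts for *DCP1*. In *rpb4∆*, *POP2* and *DHH1* overlapped WT, and *PAT1* lay below WT in both libraries. The summed level of the 10 members was 706 and 749 normalized CPM in *rpb1-84 rrp6∆*, 816 and 789 in *rrp6∆*, 1072 and 1110.4 in *rpb1-84*, 873 and 894 in *rpb4∆*, and 911 and 949 in WT, and the strains did not overlap in this sum. *XRN1* alone accounted for 257 and 277 of it in *rpb1-84 rrp6∆* and for 402.5 and 396 in WT. The order of this sum depended on the TMM factor. As a plain share of ORF counts the members took 0.0724% and 0.0762% in *rpb1-84 rrp6∆*, 0.0940% and 0.0875% in *rrp6∆*, 0.104% and 0.109% in *rpb1-84*, 0.0794% and 0.0799% in *rpb4∆*, and 0.0896% and 0.0936% in WT, where *rrp6∆* overlapped WT and *rpb4∆* lay below *rrp6∆*.

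The members were also set beside 45 other listed genes, namely genes of mRNA decay and the stalk genes *RPB4* and *RPB7*. Of these, 44 were tested, and *LSM4* had too few counts. In *rpb1-84 rrp6∆* over WT 11 of the 44 were called higher and 17 lower, against 28.5% and 28.4% of the ORF rows. The double mutant had 9 called higher and 11 called lower over *rrp6∆*, against 25% and 23.4%, and in *rrp6∆* over WT 8 were higher and 15 lower, against 26.4% and 27.3%. A group of 4 genes was named for the Ski complex, the cofactor of the cytoplasmic exosome, and held *SKI2*, *SKI3*, *SKI8* and *SKI7*. All 4 were called lower in *rpb1-84 rrp6∆* than in WT, where 28.4% of the ORF rows were. The weakest of these calls was *SKI8* (-0.25 ± 0.12 on the log2 scale, edgeR adjusted p = 0.059), and that of *SKI7* was lost without *rpb1-84 rrp6∆* replicate 1, at -0.58. In *rpb1-84* over WT the same 4 genes were called lower at a median of -1.45, where 35.9% of the ORF rows were. *SKI7* had 5.69 and 8.98 normalized CPM in *rpb1-84 rrp6∆*, 22.7 and 21.7 in *rrp6∆* and 14.1 and 12.5 in WT. It was 0.32 times its *rrp6∆* level in the double mutant (-1.65 ± 0.22 on the log2 scale, edgeR adjusted p = 5.0e-07) and 0.53 times its WT level. *SKI3* was 0.62 times its *rrp6∆* level.

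Among the other decapping genes, *EDC1*, an activator of decapping, was higher than WT in both strains without Rrp6, at 1.29 ± 0.42 on the log2 scale in *rpb1-84 rrp6∆* and 1.44 ± 0.40 in *rrp6∆*, on 7 and 9 counts in WT, and neither call held with DESeq2. *EDC2*, whose row is shared with YER034W, was 1.72 times its WT level in the double mutant, and *SCD6*, a repressor of translation that binds decapping factors, was 1.42 times its *rrp6∆* level there. *SBP1*, an RNA-binding protein, was 0.61 times its WT level in *rrp6∆*. *UPF3*, a factor of nonsense-mediated decay, had 88.6 and 98.0 normalized CPM in *rpb1-84 rrp6∆*, 82.0 and 85.1 in *rrp6∆* and 42.7 and 49.0 in WT. Both mutants lay above WT without overlap, by 1.01 ± 0.12 on the log2 scale in *rpb1-84 rrp6∆* and by 0.87 ± 0.12 in *rrp6∆*.

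Of the RNA-binding regulators, *PUF4*, a Pumilio-family protein that recruits Ccr4-Not, had 38.9 and 37.9 normalized CPM in *rpb1-84 rrp6∆*, 46.9 and 46.4 in *rrp6∆* and 77.4 and 80.1 in WT. It was 0.48 times its WT level in the double mutant and 0.59 times in *rrp6∆*. *MPT5*, a second Pumilio-family gene whose row is shared with YGL177W, was 1.83 times its WT level in *rrp6∆*, and *NGR1* was 0.64 times. Among the exonucleases, *RAT1*, the nuclear counterpart of *XRN1*, was 1.53 times its *rrp6∆* level in the double mutant, and *DXO1*, a decapping exonuclease, was 0.46 times its WT level there. *PAN3*, of the other cytoplasmic deadenylase, was 1.33 times and the stalk gene *RPB7* 0.56 times its *rrp6∆* level in the double mutant. *RPB7* had 26 and 15 counts in *rpb1-84 rrp6∆* and 52 and 32 in *rrp6∆*.

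**Figure D4:**
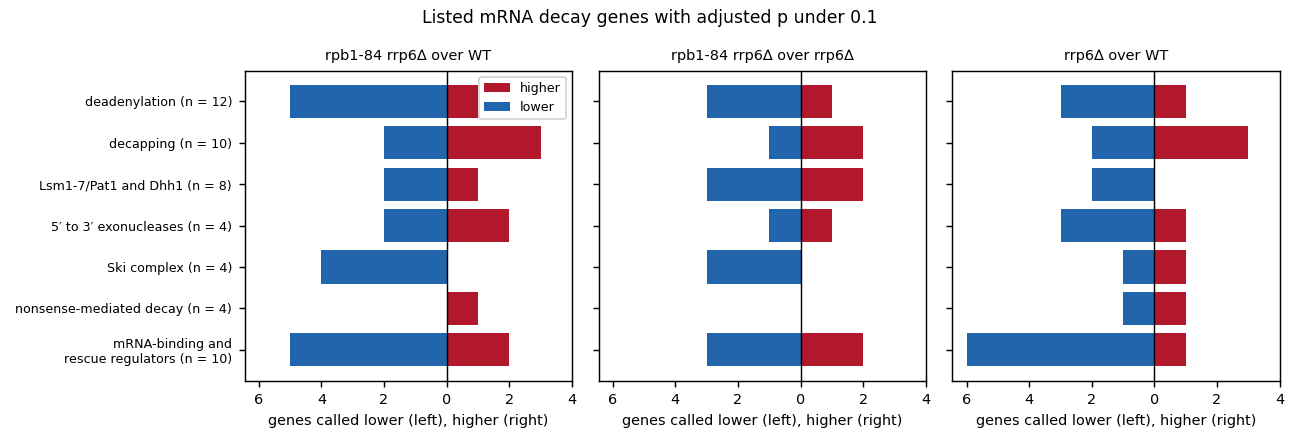
Number of listed mRNA decay genes called lower (bars to the left) and higher (bars to the right) at an adjusted p under 0.1, by group, in *rpb1-84 rrp6∆* over WT, *rpb1-84 rrp6∆* over *rrp6∆* and *rrp6∆* over WT. The 10 members are included, and *RPB4* and *RPB7* are left out. The group named for the Ski complex, which includes *SKI7*, has 4 of 4 genes called lower in *rpb1-84 rrp6∆* over WT, against 28.4% of the ORF rows. The call of *SKI7* was lost without *rpb1-84 rrp6∆* replicate 1. Over *rrp6∆* 3 of 4 are called lower, against 23.4%. In *rrp6∆* over WT 1 is called higher and 1 lower, against 26.4% and 27.3%.

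The ORF rows with a profile most like those of *XRN1*, *DCP2* and *CCR4* over the 10 libraries were looked up among 3788 rows with at least 20 counts in every library. The Pearson correlation of log2 levels with *XRN1* was 0.992 for *PSA1*, 0.984 for *MAM33* and 0.970 for *UFD4*. With *DCP2* it was 0.979 for *RQC2*, 0.973 for *RPN2* and 0.972 for *RSC8*, and with *CCR4* 0.992 for *MRPL17*, 0.974 for *NRT1* and 0.972 for *RPL22B*. These points are 5 strains in 2 cultures each and share their libraries and depth, so the values are a description. For *DCP2* and *CCR4* both *rpb1-84* libraries lay above all the others. How far that strain alone sets their correlations was not tested.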

How the data were processed

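RNA-Seq (QuantSeq 3′ tags) was analysed in 10 libraries, 2 per strain. The authors checked reads with FastQC, clipped adapters, mapped with HISAT2 onto build R64 of the S288C strain and deposited featureCounts counts per annotated feature, not normalized. Versions, strand setting, treatment of overlapping features and whether an ORF's counted interval passes its stop codon are not given in the sources used here. None of the 10 genes overlaps another gene of the RefSeq annotation, but *XRN1*, *DCP1*, *DCP2* and *EDC3* have a gene on the opposite strand, and *PAT1* one on the same strand, within 300 bp downstream. Overlap with the ncRNA rows was not checked.

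From the counts, changes were fitted with edgeR 4.0.16 (R 4.3.3; glmQLFit, filterByExpr, TMM factors from ORF rows) over 6 libraries (*rpb1-84 rrp6∆*, *rrp6∆*, WT; 9180 rows tested) and over 8 libraries with *rpb1-84* (9242 rows), and adjusted over all rows. Depth ranged from 1415496 to 7268211 counts, and the counts of a gene limit its precision. Fits were tested on simulated data first. Alternatives were TMM from all rows, DESeq2 1.42.0 size factors and test, total counts, no filter, other call rules, a replicate block, only the libraries compared, and leaving out each library. Named genes are the 10 members and, of a wider list, the 3 with the largest increase and decrease called without overlap of groups in each comparison of the 6 libraries, with *RRP6*, *RPB4* and *RPB7* as checks and the 3 rows most like *XRN1*, *DCP2* and *CCR4*. *POP2*, *PAT1*, *DHH1*, *DCP2*, *CCR4* and *CDC39* were picked for their sequences after their values were seen. The group of the Ski complex was likewise singled out with its calls known. The members and lists were chosen with earlier results of these data known. Comparisons share libraries and are not independent. Python 3.11.15 with pandas 2.3.3 and matplotlib 3.10.9 was used for levels, sequences and figures. The WT libraries of earlier experiments were not used here.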

Additional observations from a re-analysis of the deposited data

Results flagged for a closer look

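The response to loss of Rrp6 differed between the *rpb1-84* and *RPB1* alleles for 8 of the 10 members, by a test of the difference itself (edgeR interaction term on the log2 scale). The term was 2.53 for *POP2*, 1.35 for *PAT1* and 1.13 for *DHH1*, and -1.50 for *CDC39*, -1.30 for *DCP2*, -0.70 for *CCR4*, -0.65 for *LSM1* and -0.41 for *EDC3*. Of the 5207 ORF rows tested, 30.2% had a positive and 30.4% a negative term that was called. The *EDC3* term was lost with DESeq2 and without each of *rpb1-84 rrp6∆* replicate 2 (-0.37), *rrp6∆* replicate 2 (-0.35), *rpb1-84* replicate 1 (-0.30) and WT replicate 1 (-0.25). The tag at *RPB4* in the *rpb1-84* strain and the experiment cannot be told apart from the allele in these terms.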

How the results depend on the processing

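Scaling and the call rule moved the counts of members called lower. The other scalings also lowered the median ORF row in *rrp6∆* and in *rpb1-84 rrp6∆* over WT. The share of ORF rows called under them was not counted. In *rrp6∆* over WT 3 members became 8 with TMM from all rows, DESeq2 size factors or the DESeq2 test; in *rpb1-84 rrp6∆* over WT 4 became 8 with each of these and 7 with total counts; in *rpb1-84 rrp6∆* over *rrp6∆* 4 became 1, 1 and 0, the DESeq2 test changing both scaling and test, and 2 at an adjusted p under 0.05. Beyond 2-fold the counts lower were 0 in all 3 comparisons, 3 of 6 in *rpb1-84 rrp6∆* over *rpb1-84* and 2 of 5 in the interaction, and the counts higher 2 of 4 in *rpb1-84 rrp6∆* over *rpb1-84* and 2 of 5 in *rpb1-84* over WT. When each library was left out, the members called higher ranged from 0 to 1 in *rrp6∆* over WT and in *rpb1-84 rrp6∆* over WT, and those lower from 1 to 4 in *rpb1-84 rrp6∆* over *rrp6∆*, the lowest without *rrp6∆* replicate 1.

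Log2 changes turned sign as follows. In *rrp6∆* over WT, with TMM from all rows, DESeq2 size factors and the DESeq2 test in that order, *CDC39* was -0.32, -0.32 and -0.32, *DCP2* -0.25, -0.25 and -0.25, *EDC3* -0.47, -0.47 and -0.47, and *LSM1* -0.41, -0.41 and -0.41; with total counts *CDC39* was -0.0024, *EDC3* -0.15 and *LSM1* -0.093. In *rpb1-84 rrp6∆* over WT *DCP1* was -0.29, -0.32 and -0.30, and -0.12 with total counts, and *DCP2* -0.080, -0.11 and -0.10. In *rpb1-84 rrp6∆* over *rrp6∆* *EDC3* was 0.14, 0.11 and 0.11, and *XRN1* 0.0068 with TMM from all rows. In *rpb1-84* over WT *XRN1* was -0.00068 with total counts. None of these genes was called in the same comparison with ORF scaling. In *rrp6∆* over WT, however, *CDC39*, *EDC3* and *LSM1* were called lower with TMM from all rows, DESeq2 size factors and the DESeq2 test. Those scalings also lowered the median ORF row.

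Leaving out libraries turned the sign of uncalled changes. The ranges were -0.14 to 0.18 for *EDC3* in *rrp6∆* over WT; -0.23 to 0.31 for *DCP1* and -0.16 to 0.17 for *EDC3* in *rpb1-84 rrp6∆* over WT; -0.031 to 0.18 for *CCR4*, -0.22 to 0.24 for *DCP2*, -0.055 to 0.027 for *EDC3* and -0.43 to 0.062 for *DHH1* in *rpb1-84 rrp6∆* over *rrp6∆*; -0.035 to 0.037 for *XRN1* in *rpb1-84* over WT; and -0.11 to 0.51 for *DCP1* in the interaction. Calls of single genes were lost in *rpb1-84 rrp6∆* over WT for *EDC1* without *rpb1-84 rrp6∆* replicate 2 (0.77) and *SKI7* without its replicate 1 (-0.58), in *rrp6∆* over WT for *NGR1* without *rrp6∆* replicate 2 (-0.46), and in *rpb1-84 rrp6∆* over *rrp6∆* for *RPB7* without *rrp6∆* replicate 1 (-0.46) or *rpb1-84 rrp6∆* replicate 2 (-0.67), *PAN3* without *rpb1-84 rrp6∆* replicate 1 (0.35), *POP2* without *rrp6∆* replicate 1 (-0.30) or either *rpb1-84 rrp6∆* library (-0.41 and -0.57), *CDC39* without *rrp6∆* replicate 1 (-0.22) or *rpb1-84 rrp6∆* replicate 2 (-0.27), and *LSM1* without replicate 1 of *rrp6∆* (-0.18) or of *rpb1-84 rrp6∆* (-0.16). Calls were gained in *rpb1-84 rrp6∆* over WT for *DCP2* without *rpb1-84 rrp6∆* replicate 1 (0.47) and *DHH1* without its replicate 2 (-0.53), in *rpb1-84 rrp6∆* over *rrp6∆* without *rpb1-84 rrp6∆* replicate 2 for *DCP1* (-0.82) and *DHH1* (-0.43), and in *rrp6∆* over WT for *DCP1* without WT replicate 1 (0.85) and *CDC39* without *rrp6∆* replicate 2 (0.25). The interaction could not be fitted on only 2 strains.

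The replicate numbers were not shown to pair the libraries (correlation of same-numbered deviations between -0.09 and 0.06, 2 numbers only). With a replicate block the counts stayed at 3, 4 and 4 lower and 0 higher in the 3 comparisons of the *rrp6* experiment, and *EDC3* was 0.0028 in *rpb1-84 rrp6∆* over WT. On total counts the members' levels were 0.83 to 0.84 times the normalized CPM in the strains without Rrp6 and 0.94 times in WT. The few counts of *DCP1* everywhere and of *POP2* in *rpb1-84* limit what these libraries can show.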
